A study of Homo sapiens with 79 samples.

Results

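The 8 genes described here are CLK1, CLK2, CLK3, CLK4, OGT, MAT2A, PNISR and PNN, which were chosen by symbol because their transcripts are known to keep introns in the nucleus. They are 8 of 48453 genes in the deposited table and contribute 97 of its 185661 isoforms, and all 8 genes passed the filter on low values that left 25442 genes for testing. Their RNA was followed in formaldehyde RNA immunoprecipitation (fRIP) of 24 proteins from K562, an established human erythroleukemia cell line. In fRIP, cells are fixed lightly with formaldehyde and sonicated, an antibody against 1 protein is added to the lysate, and the RNA that comes down with it is sequenced. The 24 targets were 6 RNA-binding proteins (PABP, HUR, IMP1, HNRNPU, HNRNPH1 and ADAR) and 18 chromatin-associated proteins. The latter were the Polycomb subunits SUZ12 and EZH2, the heterochromatin protein CBX3 and its phosphorylated form phospho-CBX3, the remodellers CHD1, CHD4 and CHD7, the acetyltransferases CBP and PCAF, the deacetylase HDAC1, the demethylases LSD1 and PHF8, the DNA methyltransferase DNMT1, the methyltransferase cofactors WDR5 and RBBP5, the architectural proteins CTCF and STAG2, and the nucleoporin NUP98. The study took STAG2 as a negative control, since its fRIP gave no clear excess of bulk RNA. It still reported a small set of transcripts strongly enriched in STAG2 fRIP.

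Most introns are removed while a transcript is being made. A detained intron is instead left in a polyadenylated transcript that stays in the nucleus, from where it can be spliced later or degraded, and a cell can use the pool to raise or lower an mRNA without new transcription. The CLK kinases phosphorylate SR proteins, the splicing factors that define exons, and so act on splicing itself, including that of their own transcripts. OGT attaches O-linked N-acetylglucosamine to proteins, and MAT2A makes S-adenosylmethionine, the methyl donor. In both, splicing of the detained intron is known to respond to the level of the product. PNISR and PNN are SR-related proteins of nuclear speckles, the storage sites of splicing factors.

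There were 3 fRIP libraries for each of 22 proteins and 2 each for EZH2 and STAG2, which gave 70 fRIP libraries, and 9 input libraries, made from lysate without an antibody and labelled as 3 sets of 3. All libraries are from the same cell line, and per the methods of the study the replicates came from separate lysates made on different days, so p-values measure the spread between such preparations. All 24 comparisons use the same 9 inputs, so they are not independent of each other. Depth, read from the steps in the low values, was 1.74 to 52.5 M fragments (M, mega) in the fRIP libraries with a median of 12.0, and 10.8 to 27.5 M in the inputs with a median of 18.8. The 3 ADAR libraries were the shallowest at 1.74 to 2.08 M. Of the markers of K562, TFRC was at 284 FPKM (fragments per kilobase of transcript, scaled to the total of the library) in input and the fetal globin HBG2 at 866 FPKM, while KRT5, ALB, CD3E and COL1A1 were each under 1 FPKM, but EPCAM was at 36.2 FPKM. FPKM is relative to the total of a library, so fewer transcripts of 1 gene and more of all others cannot be told apart, nor can fewer cells with a transcript and fewer copies per cell.

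The introns that the isoforms in question hold are shown first by their ends, because the 4 kinases share 1 of them. Introns are counted from the 5′ end of the coding isoform with the most exons in each gene, and among equals of that with the highest input level (CLK1-201, CLK2-202, CLK3-201, CLK4-201, OGT-202, MAT2A-201, PNISR-201 and PNN-201). In each sequence, read 5′ to 3′ on the strand of the gene from GRCh37 (hg19), capitals mark the intron and lower case the exon.
CLK1 intron 4 start: gatGTATAG
CLK1 intron 4 end: GATTTATTTCTCTCTTTTAGatg
CLK2 intron 4 start: gatGTACAA
CLK2 intron 4 end: CCTGCTCTCTTTCATTTCAGatg
CLK3 intron 4 start: gatGTACAG
CLK3 intron 4 end: CAATTTCTTTTCTCTCCTAGatg
CLK4 intron 4 start: gatGTATAG
CLK4 intron 4 end: TTTTTCCCTCCTCACTCTAGatg
OGT intron 4 start: aagGTAGGT
OGT intron 4 end: TTTCATTAACCCCTCCTAAGgca
MAT2A intron 3 start: aagGTGTGT
MAT2A intron 3 end: GTTGTGTTTTTTGCTTATAGgtt
PNISR intron 10 start: tcgGTAAGT
PNISR intron 10 end: ACTGAGCTTTATGCACACAGgtg
PNN intron 2 start: gagGTAAGA
PNN intron 2 end: TTGAACATTTTAAATTTCAGgcg

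Intron 4 of the kinases lies at chr2:201724470-201724847 on the minus strand in CLK1 (378 nt), chr1:155238151-155238498 on the minus strand in CLK2 (348 nt), chr15:74914558-74914834 on the plus strand in CLK3 (277 nt) and chr5:178043950-178044344 on the minus strand in CLK4 (395 nt). Its exon ends in gat before it and opens with atg after it in all 4 genes, and the first bases of CLK1 and CLK4 are identical. Over the 96 introns of these coding isoforms of the 8 genes, the most frequent base at each position of the start was aagGTAAGT. Intron 4 of each kinase matched it at 4 of 9 positions, the fewest of the 12 introns in each of CLK1, CLK2, CLK3 and CLK4. The other introns shown do not have such a start. OGT intron 4 (chrX:70764486-70767756, plus strand, 3271 nt) matched at 8 positions. MAT2A intron 3 (chr2:85768501-85768755, plus strand, 255 nt), PNISR intron 10 (chr6:99850587-99851704, minus strand, 1118 nt) and PNN intron 2 (chr14:39645354-39645730, plus strand, 377 nt) each matched at 7.

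All 8 genes are protein coding. The annotation (GENCODE v44 on the same assembly) placed CLK1 at chr2:201717732-201729414, CLK2 at chr1:155232659-155248282, CLK3 at chr15:74890841-74937755, CLK4 at chr5:178029665-178057616, OGT at chrX:70752937-70795742, MAT2A at chr2:85766291-85772404, PNISR at chr6:99845505-99873207 and PNN at chr14:39644387-39652424. It gave a class to 94 of the 97 isoforms. Of these, 31 were coding, 37 retained intron, 8 nonsense-mediated decay and 18 noncoding isoforms with no coding sequence defined. Isoforms that could not be matched were 1 of CLK2 and 2 of CLK3, and CLK2 had no retained intron isoform, so comparisons of the classes cover the other 7 genes. Over these genes, 19 introns of the coding isoforms used for counting lie whole within a retained intron isoform and 65 do not. The 19 had a median length of 720 nt and a median GC content of 32.6%, and the 65 had 783 nt and 39.1%. The median number of matches at the start was 7 for the first and 6 for the second, and all 84 begin with GT and end with AG. In MAT2A, introns 2, 3 and 6 of 8 lie whole within a retained intron isoform, and intron 8, the last, lies within none. Whether an intron held by these isoforms is one known to be detained was not tested.

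These isoforms limit what can be read from the values. The FPKM of an isoform is an estimate that splits fragments among overlapping isoforms of a gene, and the table holds no unspliced transcript, so fragments from an intron of a transcript still being made can be given to a retained intron isoform. The study reported PABP coverage to peak towards 3′ ends, and DNMT1 and SUZ12 to lean towards 5′ ends. Some isoforms cover only part of a gene, such as MAT2A-203 (583 nt, with intron 2 of 8) and MAT2A-204 (691 nt, with intron 3). Whether position along the transcript changes the share of such isoforms was not tested. How strand was used in the counting is not given in the sources used here, and some members overlap a gene on the opposite strand. CLK2 overlaps HCN3 (5.95 FPKM in input), CLK3 overlaps EDC3 (18.1 FPKM), MAT2A overlaps GGCX (17.8 FPKM) and PNISR overlaps PNISR-AS1 (4.65 FPKM).

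The first question was which proteins bring down more or less RNA of each gene than input holds. The gene was tested with limma on log2(FPKM + 1) over all 25442 genes, and a change had to exceed 2-fold with an adjusted p (Benjamini-Hochberg) below 0.05 to be called. Fold changes are on the scale of log2(FPKM + 1) and understate those of low genes. Of the 192 comparisons of 8 genes with 24 proteins, 39 were enriched and 20 depleted, where 6.90% and 5.52% of all comparisons of tested genes were. Enrichment was shared by all 8 genes in SUZ12 fRIP, where 15.3% of tested genes were enriched, and in CBX3 fRIP, where 7.45% were. SUZ12 is a subunit of Polycomb repressive complex PRC2, and CBX3 (HP1 gamma) reads methylated histone H3. Depletion of 5 genes each was seen in PABP fRIP, with 14.7% of tested genes depleted, and in EZH2 fRIP, with 9.13%.

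**Figure D1:**
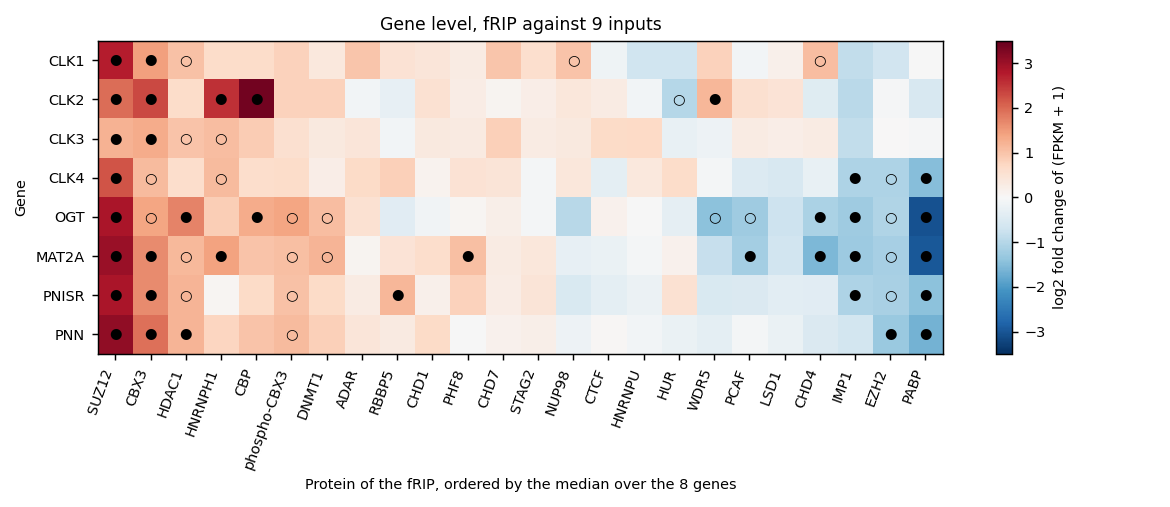
Log2 fold change of the 8 genes (vertical axis) in fRIP of each of 24 proteins (horizontal axis, ordered by the median over the genes) against the 9 inputs, from limma on log2(FPKM + 1). Filled dots mark calls that were also made against the input set matched to the protein, and open circles mark calls made against all inputs alone. SUZ12 and CBX3 stand at one end with all 8 genes called, and PABP stands at the other with 5 called.

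In SUZ12 fRIP, MAT2A was at 1142, 1216 and 1833 FPKM, against a lowest, median and highest of 137, 157 and 209 FPKM in the 9 inputs. OGT was at 1300, 1496 and 1510 FPKM, against 76.9, 201 and 301 FPKM in input. PNN was at 364, 411 and 433 FPKM, against 38.1, 45.5 and 54.6 FPKM. No SUZ12 library overlapped the inputs in these genes. The log2 fold changes were 3.02 ± 0.16 (SE) for MAT2A, 2.87 ± 0.28 for OGT and 3.09 ± 0.15 for PNN, with limma adjusted p of 5.32e-25, 1.39e-13 and 1.87e-26. PNISR rose by 2.86, CLK1 by 2.74, CLK4 by 2.21, CLK2 by 1.97 and CLK3 by 1.22 on the log2 scale. CLK3 had the smallest rise, from 19.2, 25.8 and 31.6 FPKM in input to 50.7, 63.0 and 64.8 FPKM. All 8 calls were kept against input set 1, the set matched to SUZ12 from the deposited table of comparisons, with log2 fold changes of 1.10 to 2.92, and with every library centred on its median.

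CBX3 fRIP enriched the same 8 genes. The log2 fold changes ran from 1.10 for CLK4 to 2.31 for CLK2, with MAT2A at 1.66 and PNN at 1.93. CLK2 was at 116, 131 and 149 FPKM in CBX3 fRIP against 22.3, 25.6 and 30.1 FPKM in input, with no overlap. Against the matched input set, the changes of CLK4 (0.81) and OGT (0.78) fell under the 2-fold limit, and the other 6 calls were kept. Centring also took CLK4 to 0.97. In fRIP of HDAC1, a histone deacetylase, 6 genes were enriched where 8.42% of tested genes were, but only OGT (1.14) and PNN (1.01) stayed called against the matched set. In phospho-CBX3 fRIP 4 genes were enriched against 2.58% of tested genes, and none of the 4 was called against the matched set, where their changes were 0.71 to 0.92. OGT differed between the input sets themselves, with means of 297, 144 and 187 FPKM in sets 1, 2 and 3, and its lowest input library was set 2 replicate 3 at 76.9 FPKM.

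CLK2 had a pattern of its own among the kinases. Its highest level was in fRIP of CBP, a histone acetyltransferase, at 266, 273 and 301 FPKM, and this was above every input and every other fRIP library of the gene. The log2 fold change was 3.39 ± 0.14 (limma adjusted p = 2.15e-29) and 3.45 against the matched set. OGT was the only other gene called in CBP fRIP, at 1.30, where 9.08% of tested genes were enriched, and the other 6 had changes that were not called. In fRIP of HNRNPH1, a nuclear splicing regulator that binds G-rich sequences, CLK2 was at 125, 176 and 177 FPKM and rose by 2.56. MAT2A rose there by 1.41, CLK4 by 1.11 and CLK3 by 1.08, where 24.5% of tested genes were enriched. CLK3 and CLK4 were not called against the matched set, or without HNRNPH1 replicate 1 (0.95 and 0.98), and centring took CLK3 to 0.35, CLK4 to 0.37 and MAT2A to 0.67. CLK2 was also enriched in WDR5 fRIP (1.16), and it was depleted just past the 2-fold limit in HUR fRIP, a call that was lost without HUR replicate 3 and without any 1 of the 3 libraries of input set 1.

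PABP, which binds poly(A) tails, gave the lowest levels of OGT, MAT2A, PNISR, PNN and CLK4 of all groups. MAT2A was at 18.9, 19.9 and 22.8 FPKM in PABP fRIP, OGT at 20.4, 21.4 and 26.9 FPKM, and PNN at 13.1, 14.2 and 15.1 FPKM, all below every input. The log2 fold changes were -2.97 ± 0.16 for MAT2A, -3.04 ± 0.28 for OGT, -1.64 for PNN, -1.50 for CLK4 and -1.45 for PNISR, and all 5 calls were kept against the matched set. Centring left 4 of them called and took PNISR to -0.95. CLK1 was not called, at 34.2, 34.6 and 34.9 FPKM against 25.0, 39.2 and 41.2 FPKM in input, and neither were CLK3 (-0.04) and CLK2 (-0.57).

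Other proteins also lowered some of the genes. In fRIP of IMP1, which binds mRNAs in the cytoplasm, OGT, MAT2A, PNISR and CLK4 were depleted by 1.07 to 1.26 on the log2 scale, where 10.5% of tested genes were depleted. These 4 calls were kept against the matched set and lost with centring, which left changes of -0.61 to -0.81. Of the 5 genes depleted in EZH2 fRIP, only PNN (-1.29) was also called against the matched set. EZH2 is the catalytic subunit of PRC2, the complex to which SUZ12 belongs. Its changes ran from -1.29 to 0.01 (CLK3), where those of SUZ12 ran from 1.22 to 3.09, with the inputs shared. In fRIP of CHD4, a chromatin remodeller, MAT2A fell by 1.58 and OGT by 1.10, and CLK1 rose by 1.07, where 9.79% of tested genes were depleted and 2.91% enriched. The OGT call was lost without CHD4 replicate 3 (-0.73, limma adjusted p = 0.0704), and that of CLK1 without CHD4 replicate 1 (0.88). The rise of CLK1 was also under the 2-fold limit against input set 1, the set matched to CHD4, with means of 75.3 FPKM in CHD4 fRIP and 40.3 FPKM in that set.

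Ordered by their mean level, neighbouring groups mostly overlapped. Of the 24 neighbouring pairs among the 25 groups, between 18 (PNISR and PNN) and 23 (CLK3) overlapped in the range of their libraries. Input held place 11 of 25 for OGT and places 15 to 20 for the other genes. The highest mean was in SUZ12 fRIP for CLK1, CLK4, OGT, MAT2A, PNISR and PNN, in CBP fRIP for CLK2 and in CBX3 fRIP for CLK3, which was at 62.8 FPKM. Outside the 8 genes, the protein coding gene with the most similar mean log2 level over the 25 groups was CCNL1 for CLK4 (Pearson r 0.931), ARGLU1 for PNN (0.957), SRSF11 for PNISR (0.947), RBM41 for OGT (0.966), DYNC1LI2 for MAT2A (0.956), KANSL2 for CLK1 (0.897), KIFC2 for CLK2 (0.929) and LLGL2 for CLK3 (0.896). These values describe 25 means that share libraries and normalization, and each is the highest of 11167 candidates.

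The second question was whether coding and retained intron isoforms of a gene moved alike. FPKM was summed over the coding isoforms and over the retained intron isoforms of each gene, and each sum was tested in the same way among 19564 sums. Coding sums of the 8 genes were enriched in 26 and depleted in 15 of 192 comparisons, against 6.46% and 5.95% of all coding sums. Retained intron sums of 7 genes were enriched in 38 and depleted in 28 of 168 comparisons, against 12.8% and 10.1% of all retained intron sums. The retained intron class therefore moved more often than the coding class among all genes too.

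In SUZ12 fRIP, retained intron sums of all 7 genes were enriched, where 47.9% of such sums were, and coding sums of 6 of 8 genes, where 15.3% were. The retained intron sum of MAT2A was at 646, 764 and 1028 FPKM, against 24.9, 29.2 and 43.7 FPKM in input, a log2 fold change of 4.65. Its coding sum rose less, to 325, 407 and 638 FPKM from 105, 118 and 158 FPKM, a log2 fold change of 1.75. PNN rose by 4.63 in the retained intron and 2.80 in the coding class, and CLK1 by 3.02 and 1.52. OGT went the other way, with 3.61 in the coding class and 2.07 in the retained intron class, but this direction rested on 1 coding isoform, OGT-201. Without it the coding change was 1.40, less than the retained intron change. Without the isoform PNN-204, in turn, the retained intron change of PNN was 1.32, less than its coding change. Both alternatives were chosen after the values of these isoforms were seen. CLK3, the lowest, had a retained intron change of 1.25 that fell to 0.89 against the matched set. In CBX3 fRIP, 5 coding sums were enriched (CLK2, CLK3, OGT, PNISR and PNN, 5.55% of all), and 6 retained intron sums, all but that of CLK4 (37.8% of all). The CLK3 coding call was lost without CBX3 replicate 3 (0.98), the OGT coding call without OGT-201 (0.63), and the retained intron call of OGT without CBX3 replicate 1, CBX3 replicate 2 or input set 2 replicate 3. HDAC1 fRIP enriched 5 coding sums (CLK1, CLK3, OGT, PNISR and PNN, 7.41% of all), with OGT highest at 2.67, and 1 retained intron sum, that of MAT2A at 2.22. Of the OGT coding sum, OGT-201 had a mean of 318 FPKM in HDAC1 fRIP and 7.89 FPKM in input.

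**Figure D2:**
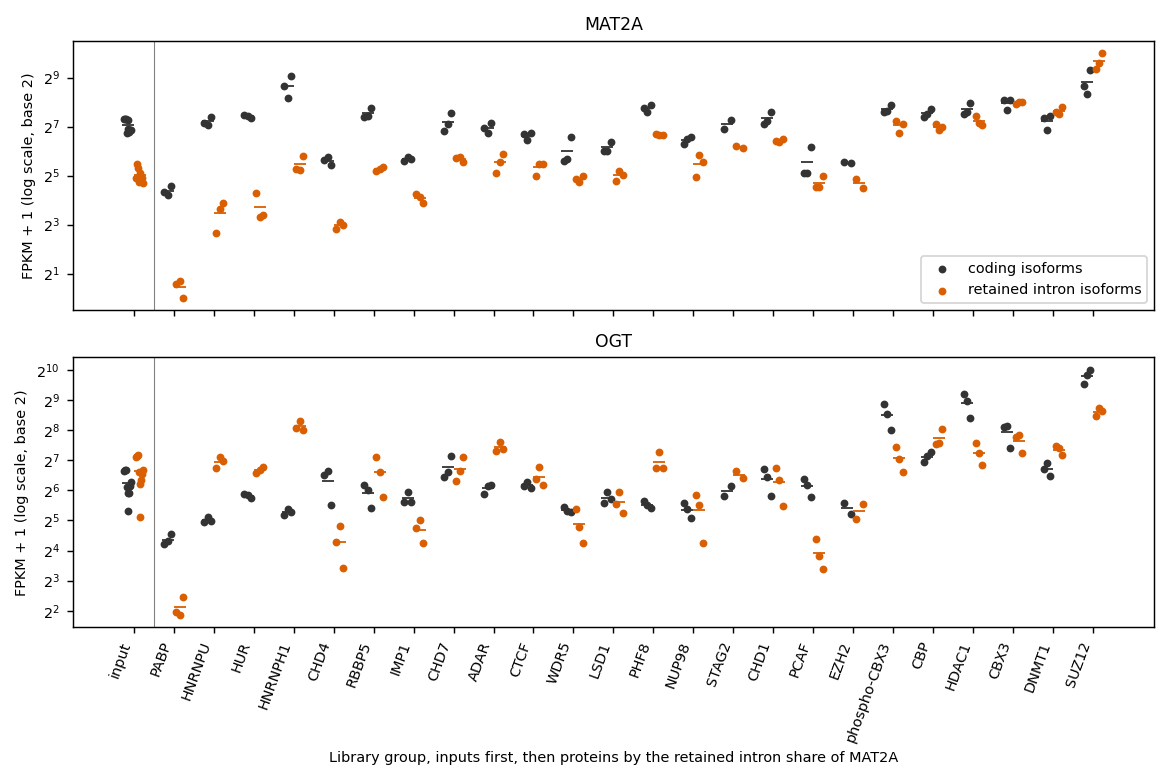
Summed FPKM + 1 of the coding isoforms (black) and the retained intron isoforms (orange) of MAT2A and OGT, on a log scale of base 2 (vertical axis), in input and in each fRIP, ordered by the retained intron share of MAT2A (horizontal axis). Points are libraries and short lines are means. The SUZ12 libraries lie above every input and the PABP libraries below every input, in both classes and both genes.

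In PABP fRIP, retained intron sums of 6 of 7 genes were depleted, where 46.7% of such sums were. The retained intron sum of MAT2A was near 0 in 1 library and at 0.487 and 0.622 FPKM in the others, a log2 fold change of -4.57. That of PNISR was at 1.73, 2.20 and 2.47 FPKM, against 36.9, 48.3 and 79.9 FPKM in input (-4.02), and that of OGT at 2.64, 2.85 and 4.48 FPKM, against 33.3, 96.6 and 144 FPKM (-4.45). None of these libraries overlapped an input. Coding sums were depleted for MAT2A (-2.65), OGT (-1.83) and PNN (-1.56), where 8.94% of coding sums were. For PNISR the coding change was -0.79 and for CLK4 -0.82, and the changes of CLK1 (0.43), CLK3 (0.39) and CLK2 (0.21) were positive, all without a call. CLK1 was the exception among the retained intron sums, at 14.5, 14.9 and 16.2 FPKM against 9.44, 15.3 and 23.6 FPKM in input.

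**Figure D3:**
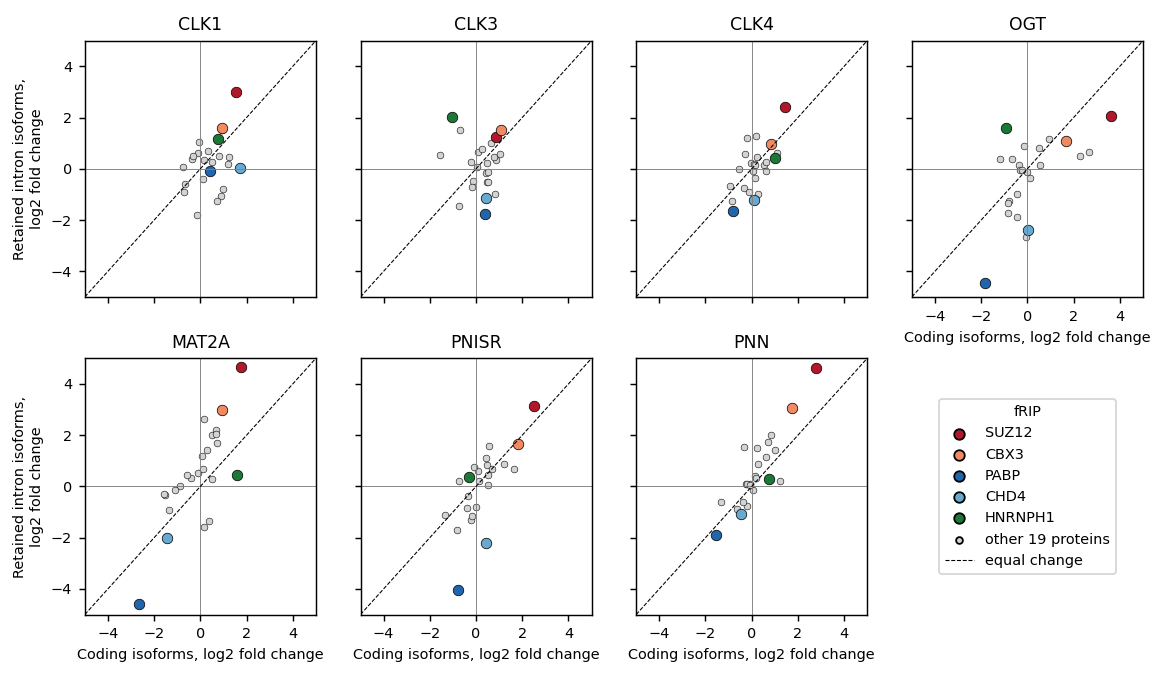
Log2 fold change against input of the summed coding isoforms (horizontal axis) and of the summed retained intron isoforms (vertical axis) in each of 24 fRIPs, 1 panel for each of the 7 genes with both classes. Points are proteins, 5 of which are coloured, and the dashed line marks equal change. PABP and CHD4 lie below the line in every panel, and SUZ12 lies above it in all panels but that of OGT, a side that turns for OGT without OGT-201 and for PNN without PNN-204.

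CHD4 fRIP lowered the same 6 retained intron sums, where 40.3% of all were depleted. The log2 fold changes were -2.37 for OGT, -2.21 for PNISR, -2.01 for MAT2A, -1.20 for CLK4, -1.13 for CLK3 and -1.07 for PNN, and CLK1 was at 0.03. The call of CLK4 was lost without CHD4 replicate 2 (-0.98) and that of PNN without CHD4 replicate 1 or replicate 3. Its coding sums were depleted in MAT2A (-1.43), where 3.88% of all were, and enriched in CLK1 (1.72), at 16.2, 20.7 and 21.8 FPKM against 2.24, 5.88 and 8.99 FPKM in input. IMP1 fRIP depleted 5 retained intron sums, those of CLK1, CLK3, CLK4, OGT and PNISR, with changes of -1.25 to -1.88 where 36.4% of all were depleted, and of the coding sums only that of MAT2A (-1.34), where 6.25% were.

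The difference between the classes was tested directly as the change of log2(retained intron FPKM + 1) minus log2(coding FPKM + 1), over 6510 genes. This ratio was raised in 29 and lowered in 26 of 168 comparisons, where 15.8% and 14.2% of all comparisons were, so the share of calls among these genes was near that of all genes. The median change over all genes was itself far from 0 in several fRIPs, at -1.17 for PABP, -0.96 for CHD4, -0.73 for PCAF, 0.87 for ADAR, 0.91 for SUZ12 and 1.35 for HNRNPH1. With each library centred on its median ratio, 31 of the 55 calls were kept and none changed sign. In PABP fRIP the ratio was lowered in 4 of 7 genes (54.3% of all genes), CLK3, OGT, MAT2A and PNISR, and OGT (-1.42) and PNISR (-2.03) stayed called after centring. In CHD4 fRIP it was lowered in 5 (47.7% of all), namely CLK1, CLK3, CLK4, OGT and PNISR, with OGT (-1.36) and PNISR (-1.62) called after centring, and the CLK1 call was lost without CHD4 replicate 2 (-0.93). PCAF fRIP lowered it in 4 (CLK1, CLK3, OGT and PNISR, 36.9% of all), with CLK1 (-1.12) and OGT (-1.75) called after centring. It was raised in SUZ12 fRIP in MAT2A, CLK1 and PNN (47.0% of all), of which MAT2A (1.95) stayed called after centring while CLK1 (0.54) and PNN (0.88) were lost, and the direction of PNN turned without the isoform PNN-204. It was also raised in ADAR fRIP in CLK4, OGT and PNN (44.7% of all). Each of the ADAR calls was lost with centring, at 0.15, 0.05 and 0.32, and also without 1 ADAR library, which was replicate 2 for CLK4, replicate 1 or 2 for OGT and replicate 3 for PNN.

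MAT2A had the most calls of the ratio, raised in 11 fRIPs and lowered in 4. Retained intron isoforms made up 19.3% ± 2.5 (SD, n = 9) of its coding and retained intron FPKM in input. The share was 64.4% ± 5.0 in SUZ12 fRIP, 57.4% ± 3.2 in DNMT1 fRIP and 50.2% ± 4.5 in CBX3 fRIP (n = 3 each), and it was 6.37% ± 2.39 in HNRNPU fRIP, 6.67% ± 2.56 in HUR fRIP and 1.95% ± 1.75 in PABP fRIP. The libraries of these 6 fRIPs did not overlap the inputs, which ran from 15.6% to 22.2%. The change of the log2 ratio was 2.90 in SUZ12, 2.47 in DNMT1 and 2.05 in CBX3, with limma adjusted p of 7.86e-17, 9.60e-14 and 3.52e-11. In DNMT1 fRIP the median change over all genes was -0.16. Of the 11 raised calls, 1 was in STAG2 fRIP (1.13), the negative control of the study, and it was lost without STAG2 replicate 1 (0.93). That in CBP fRIP fell to 0.98 with centring, and that in NUP98 fRIP was lost without NUP98 replicate 2, input set 1 replicate 1 or input set 2 replicate 3. The fall in HNRNPH1 fRIP, -1.16, lay opposite to the median of all genes there, and centring made it -2.52.

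CLK3 and OGT moved the other way from MAT2A in HNRNPH1 fRIP. The retained intron share of CLK3 was 90.0%, 92.6% and 93.0% there, against 45.9%, 48.4% and 69.9% in input, and the log2 ratio rose by 3.05. For OGT the share was 87.1%, 88.4% and 88.4%, against 46.1%, 57.1% and 58.8% in input, and the log2 ratio rose by 2.49. Both stayed called after centring, at 1.69 and 1.13. In fRIP of HNRNPU, which binds nascent and chromatin-bound RNA, the ratio of CLK3 rose by 2.22 and that of OGT by 1.58, while that of MAT2A fell by 1.78. OGT was lowered in 7 fRIPs, by 2.62 in PABP, 2.61 in PCAF, 2.40 in CHD4, 2.00 in HDAC1, 1.78 in phospho-CBX3, 1.54 in SUZ12 and 1.42 in IMP1. With centring the calls of OGT in HNRNPU (0.84) and IMP1 (-0.51) were lost. In HDAC1, SUZ12 and phospho-CBX3 the coding sum of OGT had risen, and much of it was OGT-201. Without that isoform the ratio change was -0.56 in HDAC1, -0.56 in phospho-CBX3 and -0.74 in IMP1, none of them called, and in SUZ12 it turned to 0.67, also without a call.

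The names of the classes do not say which isoforms hold a whole intron, so the exons of each isoform were compared with the introns of the coding isoforms of its gene. This choice was made after the values were seen. Of the noncoding isoforms, 20 hold at least 1 whole intron of a coding isoform, among them 1 of CLK2 (CLK2-207, of the class with no coding sequence defined) and 3 of MAT2A. Their share of the FPKM of the gene in input was 50.3% ± 4.3 (SD, n = 9) for PNISR, 39.3% ± 3.0 for OGT, 33.2% ± 6.6 for CLK1, 24.7% ± 6.5 for CLK3, 20.1% ± 5.0 for CLK4, 18.6% ± 2.3 for MAT2A, 12.3% ± 2.1 for CLK2 and 3.40% ± 1.08 for PNN. Over 192 comparisons, every fRIP library lay above every input in 36 and below every input in 51, where 15.8% and 15.4% of the comparisons of 3498 genes did, and 105 overlapped.

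In PABP fRIP and in CHD4 fRIP, all 8 genes had every library below every input, where 64.4% and 53.1% of genes did. For CLK1 the share was 0.357%, 0.376% and 0.653% in PABP and 1.83%, 2.53% and 2.78% in CHD4, against 27.4%, 30.5% and 49.9% in input. For PNISR it was 5.01%, 6.19% and 6.64% in PABP and 12.2%, 12.2% and 15.4% in CHD4, against 41.6%, 50.7% and 57.7% in input. CLK2, which fell from 8.94%, 12.2% and 15.3% in input to 0.499%, 1.19% and 1.94% in PABP, shows the same with the only isoform that holds its intron 4. CLK4 was at 7.80%, 8.97% and 9.15% in PABP against 10.9%, 22.3% and 25.3% in input.

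**Figure D4:**
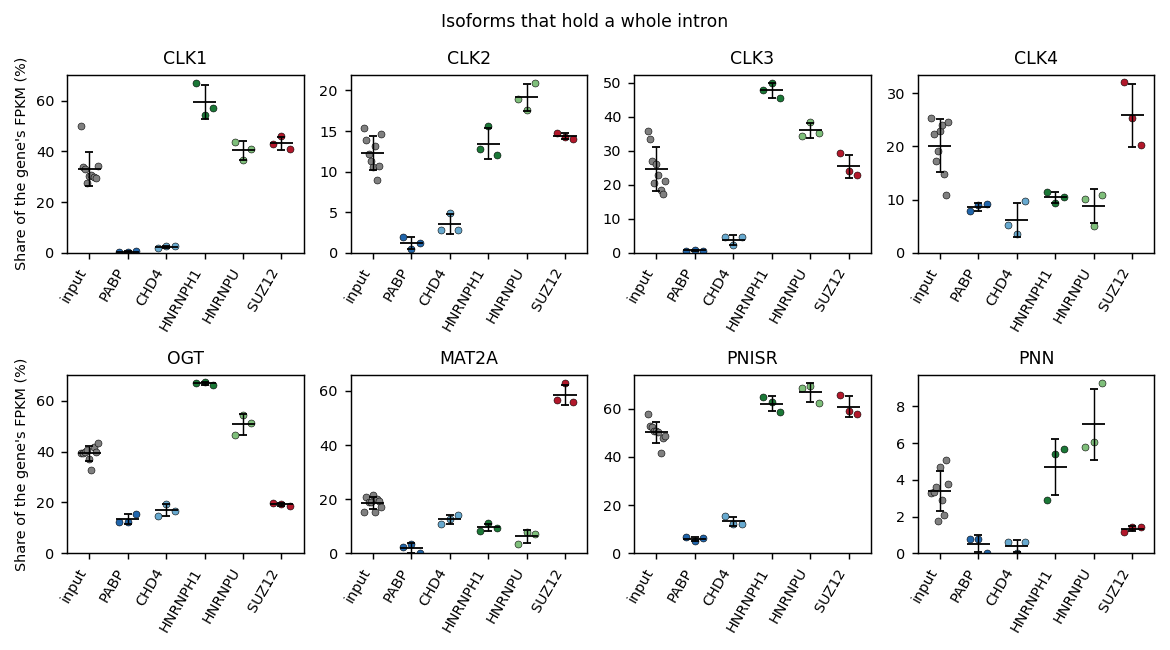
Share of the FPKM of each gene (vertical axis, percent, starting at 0) in isoforms that hold a whole intron of a coding isoform, in input and in fRIP of PABP, CHD4, HNRNPH1, HNRNPU and SUZ12 (horizontal axis). Points are libraries, with the mean and SD. All PABP and CHD4 libraries lie below the inputs in all 8 panels, and SUZ12 libraries lie above the inputs for MAT2A and PNISR and below them for OGT and PNN. OGT-201 and PNN-204 hold no whole intron but count in the FPKM of their genes. Their means in SUZ12 fRIP were 720 of 1435 FPKM and 91.6 of 403 FPKM.

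In CLK1 and PNN the 2 measures differed. The retained intron sum of CLK1 was not lowered in PABP fRIP, where CLK1-209, which is labelled retained intron but holds no whole intron, reached a median of 14.1 and a highest value of 15.9 FPKM, against a highest of 4.61 FPKM in input. This isoform was also called in CHD4 fRIP (log2 fold change 3.14), in WDR5 fRIP (3.46) and in ADAR fRIP (1.18), and it was named after its values were seen. In ADAR fRIP 1 of the 3 libraries, at 12.2 FPKM, lay above the inputs and the others, at 0.326 and 0.622 FPKM, within them, and the lowest CHD4 library, at 2.08 FPKM, also lay within the inputs. The isoform CLK1-210, which holds intron 4 and has the highest input level of the retained intron isoforms of CLK1, fell by 2.40 in PABP fRIP. The ratio of PNN was raised in SUZ12 fRIP, where the share in isoforms that hold a whole intron was 1.17% to 1.42%, below the lowest input at 1.78%. Of the retained intron sum of PNN there, a mean of 97.0 FPKM, 91.6 FPKM was PNN-204, which holds no whole intron. Without PNN-204 the ratio of PNN in SUZ12 fRIP turned to -1.48 (limma adjusted p = 1.38e-06). Without CLK1-209 the retained intron sum of CLK1 was depleted by 3.45 in PABP fRIP and by 1.69 in CHD4 fRIP.

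Fewer genes moved in the other fRIPs. The share lay above every input for 4 genes in HNRNPH1 fRIP (55.1% of genes), 4 in HNRNPU fRIP (33.4%) and 4 in RBBP5 fRIP (15.5%). OGT reached 66.3% to 67.3% in the 3 HNRNPH1 libraries against 43.4% at most in input, and CLK1 reached 54.2%, 57.2% and 66.9%. In RBBP5 fRIP, a subunit of histone H3 methyltransferase complexes, PNISR was at 66.5%, 67.1% and 72.2%, and CLK3 at 36.6%, 37.1% and 38.7%, just above the highest input at 35.7%. The share lay below every input for 5 genes in PCAF fRIP (35.8% of genes), 4 in LSD1 fRIP (27.8%), 4 in WDR5 fRIP (24.5%) and 4 in HDAC1 fRIP (7.03%). In HDAC1 fRIP, CLK1 was at 19.7%, 19.7% and 21.4%, and OGT at 18.7%, 20.1% and 21.6%. The coding isoform OGT-201 counts in the FPKM of the gene. Its mean in HDAC1 fRIP was 318 FPKM where OGT had 680, against 7.89 where OGT had 209 in input. The share of OGT without OGT-201 was not tested. MAT2A was above input in HDAC1 fRIP, at 33.9%, 40.9% and 46.7% against 21.4% at most.

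Of single isoforms, the coding isoform with the highest input level fell in PABP fRIP for MAT2A (MAT2A-201, -2.24), OGT (OGT-202, -1.72), PNISR (PNISR-202, -1.52), PNN (PNN-201, -1.36) and CLK4 (CLK4-208, -1.79), rose for CLK3 (CLK3-201, 1.20) and was not called for CLK1 and CLK2. CLK4-208 has 2 exons and a mean of 2.71 FPKM in input, where CLK4-201, with 13 exons, had 2.68 FPKM. The coding sum of CLK4 was not called in PABP fRIP. The retained intron isoform with the highest input level fell for 6 of 7 genes, where 16.1% of isoforms of every class were depleted, most for OGT (OGT-210, -4.26), PNISR (PNISR-203, -4.16) and MAT2A (MAT2A-204, -3.71), and CLK3-222 (-0.26) was not called. In SUZ12 fRIP all 7 of these retained intron isoforms rose, where 21.3% of isoforms of every class were enriched, from 1.26 for CLK3-222 to 4.63 for MAT2A-204. CLK3-222, which has 1 exon, holds no whole intron, and neither does CLK3-208. Their input means were 2.45 and 2.04 FPKM, where the retained intron sum of CLK3 was 10.9 FPKM.

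A few isoforms outside that choice, named after their values were seen, carried much of a gene in some fRIPs. OGT-201, a second coding isoform of OGT, was at 596, 736 and 830 FPKM in SUZ12 fRIP and at most 21.4 FPKM in input. It was at 207, 352 and 396 FPKM in HDAC1 fRIP. CLK2-206, a noncoding isoform, was at 133, 139 and 150 FPKM in CBP fRIP, against 4.43, 6.49 and 9.59 FPKM in input, and CLK2-207 at 39.4, 44.1 and 47.0 FPKM, against 2.20, 3.37 and 4.39 FPKM. PNN-204, a retained intron isoform that holds no whole intron, was at 85.4, 89.5 and 100.05 FPKM in SUZ12 fRIP and at most 2.54 FPKM in input. Whether these are real transcripts or fragments of others that the estimate assigns to them was not tested.

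Genes with related roles were counted in the same 24 comparisons. Of 12 SR protein kinases and related kinases, 33 of 288 comparisons were enriched (11.5%) and 8 depleted (2.78%), where 6.90% and 5.52% of those of all genes were. DYRK1A was enriched most in EZH2 fRIP (2.39), and HIPK3 was depleted most in PABP fRIP (-1.65). Of 9 nuclear speckle and exon junction partners, 27 of 216 were enriched (12.5%) and 10 depleted (4.63%). In SUZ12 fRIP 7 of these 9 were enriched, where 15.3% of tested genes were, with a median of 1.44 against 0.01 over all genes. SRRM2, the large scaffold protein of speckles, was enriched most in HNRNPH1 fRIP (2.88), and SAP18 was depleted most there (-1.62).

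Of 7 tested genes of the O-GlcNAc cycle, 14 of 168 comparisons were enriched (8.33%) and 4 depleted (2.38%), with NAGK at 2.80 in HNRNPH1 fRIP and GNPNAT1 at -1.26 in CBX3 fRIP. Of 8 tested genes of the methionine and S-adenosylmethionine cycle, 8 of 192 were enriched (4.17%) and 6 depleted (3.13%). METTL16, the methyltransferase that acts on MAT2A mRNA, was enriched most in ADAR fRIP (2.36). AHCY, which breaks down S-adenosylhomocysteine, was depleted most in SUZ12 fRIP (-1.34) and enriched most in PABP fRIP (1.21). Of 4 nuclear retained lncRNAs, 9 of 96 comparisons were enriched (9.38%) and 21 depleted (21.9%). In PABP fRIP 3 of these 4 were depleted, where 14.7% of tested genes were, with a median of -2.18 against -0.15 over all genes. MALAT1 was depleted most in HNRNPH1 fRIP (-7.08), where 2 of the 4 were enriched and the median was 1.37. TUG1 was enriched most in IMP1 fRIP (1.75).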

How the data were processed

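The authors sequenced fRIP and input RNA of K562 cells and quantified the genes and isoforms of GENCODE v18 after alignment to hg19. The submitters' processing notes name CASAVA 1.4, TopHat, Cuffdiff and Cuffnorm. The deposited tables give FPKM per library for genes and isoforms. A deposited table of comparisons gives group FPKM with the authors' test statistics, p-values and q-values. Only its input FPKM was used, to find which of the 3 input sets is nearest to the input of each protein, since the labels do not say. No test statistic was used. All columns were mapped, with 0 left out, and 1 STAG2 library whose number differs between labels and table was used without a number.

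Groups follow the labels. The value of 1 cell type marker is not reported here. Isoform classes, exons and coordinates come from GENCODE v44 on the same assembly, matched by identifier. R 4.3.3 with limma 3.58.1 (intensity trend, a mean per protein and for input, 79 libraries, pseudocount of 1 FPKM, features that reach 1 FPKM in 2 or more libraries) gave fold changes, with Benjamini-Hochberg adjustment within each comparison. The study's own test needs alignments and was not used here. Python 3.11.15, pandas 2.3.3, numpy 2.4.6, scipy 1.17.1 and matplotlib 3.10.9 were used for the rest. The fit was tested on simulated data. Depth was estimated from the spacing of the low FPKM values in genes with a single isoform, which is what 1 fragment is worth.

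The 8 genes and all lists were chosen with earlier results of these data known. Named isoforms are, for each gene, the coding and the retained intron isoform with the highest input mean, named similar genes are the 1 with the highest Pearson r, and named list genes are those with the largest and smallest mean change. Replicate numbers were checked from deviations from group means. Every pair with an input library was over 0.1 for CHD1, NUP98, PCAF and WDR5, all matched to input set 2, and the numbers were taken to pair these libraries from the data alone. Alternatives covered pseudocounts, filters, centring, each input set, a replicate block, separate fits, other isoform classes, classes without 3 isoforms chosen after seeing the data, and each library left out.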

Additional observations from a re-analysis of the deposited data

Results flagged for a closer look

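The retained intron share of OGT was 46.1% in input set 2 replicate 3, while the other 8 input libraries lay between 54.8% and 58.8%. The gap was 0.685 of the whole range of the 9 libraries, over Dixon's 95% critical value for 9 values. It was 1 of 30 groups looked at, where chance gives about 1 in 20.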

How the results depend on the processing

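With OGT-201, PNN-204 and CLK1-209 left out of their classes, chosen after seeing the data, 5 ratio calls changed sign, those of OGT in SUZ12 (0.67) and of PNN in SUZ12 (-1.48), DNMT1 (-0.46), CBX3 (-0.15) and CBP (-0.092), and 6 more were lost, as were 1 coding and 6 retained intron calls. Under the other alternatives no called value changed sign. Against input set 1 alone, 20 member genes were enriched in place of 39 and 27 coding sums depleted in place of 15. Depleted member genes numbered 11 with centring, 10 with input set 2 alone and 13 with input set 3 alone, in place of 20. With no limit on the fold, 85 genes were enriched and 41 depleted, 64 coding sums were enriched and 39 depleted, 44 retained intron sums were depleted in place of 28, and the ratio was raised in 45 and lowered in 43 in place of 29 and 26. The count of enriched retained intron sums stayed within 1.5 times of 38 under each alternative. Against the matched set, 36 of 59 gene calls, 36 of 41 coding calls, 56 of 66 retained intron calls and 50 of 55 ratio calls were kept, and with centring 37, 30, 48 and 31.

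With a replicate block for the libraries of input set 2, where the numbers were taken to pair libraries, and with a block for all libraries, all 59 gene calls, 41 coding calls, 66 retained intron calls and 55 ratio calls were kept. Leaving out single libraries gave 36 to 42 enriched and 18 to 21 depleted genes, 24 to 28 and 14 to 17 coding sums, 35 to 39 and 26 to 31 retained intron sums, and 25 to 30 raised and 24 to 28 lowered ratios. Of 221 calls, 42 were lost when some 1 library was left out. The ADAR libraries were the shallowest.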
